A study of Gallus gallus with 6 samples.

Results

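The genes described here are the fibroblast growth factor (FGF) receptors FGFR1, FGFR2 and FGFR3, their docking protein FRS2, and 5 genes that FGF signaling switches on and that in part restrain it, namely SPRY1, SPRY2, DUSP6, ETV1 and ETV5. They were found by gene symbol or alternate symbol in the deposited expression table. All 9 were present among its 16561 entries, ETV1 under its older symbol ER81, and none of them shared its values with another entry. Their Ensembl identifiers are ENSGALG00000039786 (FGFR1), ENSGALG00000009495 (FGFR2), ENSGALG00000015708 (FGFR3), ENSGALG00000009966 (FRS2), ENSGALG00000042067 (SPRY1), ENSGALG00000016906 (SPRY2), ENSGALG00000011207 (DUSP6), ENSGALG00000035504 (ETV1) and ENSGALG00000005768 (ETV5). RNA was sequenced from lenses of White Leghorn chicken embryos at embryonic day 13 (E13), in 3 libraries of lens epithelial cells and 3 libraries of lens fiber cells, each made from pooled, microdissected lenses. The epithelial samples held central and equatorial epithelium together, and the fiber samples held peripheral and central fibers together, so that differences within each population were not resolved. No treatment and no genetic change was named for either group.

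FGFs are secreted proteins that bind tyrosine kinase receptors at the cell surface together with heparan sulfate. The activated receptor phosphorylates FRS2, which recruits GRB2 and SOS and thereby starts the RAS, RAF, MEK and ERK kinase relay, and ERK in turn raises the transcription of ETS factors of the ETV1, ETV4 and ETV5 group and of the inhibitors SPRY1, SPRY2 and DUSP6. In the vertebrate lens, FGF signaling is known to support proliferation of the epithelium and to induce the elongation and differentiation of fiber cells at the equator.

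Values are FPKM, a read measure relative to transcript length and to library size, which lets the levels of different genes be compared within a library. The depth of each library is unknown because FPKM hold no read counts. Fiber cells were compared with epithelial cells on the scale of log2(FPKM + 0.1) by limma over the 10818 entries whose mean over the 6 libraries reached 0.5 FPKM. A gene counted as called when its Benjamini-Hochberg adjusted p was under 0.05 and its log2 fold change was larger than 0.4 in size, and fold changes are given with their standard error (SE). All 9 genes passed that filter on the mean. The median gene of all those tested had a log2 fold change of −0.62, so each change of the 9 genes is also given after centring every library on its median. For many of the other genes named, only the change as deposited is given. The summed FPKM of the 9 lens fiber markers found was 6086, 10393 and 8722 in epithelial replicates 1, 2 and 3 and 31779 to 34937 in fiber cells, and that of the 6 epithelial markers found was 363 to 420.3 in the epithelial libraries against 76.5 to 111 in the fiber libraries. Of these markers, 6 of 6 epithelial ones were called lower in fiber cells, where 57.7% of all tested genes were. Called higher were 7 of 9 fiber ones, where 13.1% of all tested genes were. After centring, 5 of 6 epithelial markers were called lower (CDH1 was not, at −0.09), where 29.3% of all tested genes were. All 9 fiber markers were then called higher, where 30.2% were. Markers of pigment cells, neural retina, skeletal muscle, connective tissue, immune cells, endothelium and erythrocytes summed to at most 14.2 FPKM in any library. MYF5, MYH1E, TWIST1 and HBE were at the floor of 0.0001 FPKM in all libraries, and MYOD1, COL1A1, CDH5, TEK, PTPRC and CSF1R stayed under 0.5 FPKM. The erythrocyte sum (7 markers found) was 8.39 to 14.2 FPKM in fiber cells and 0.0857 to 0.251 FPKM in epithelial cells. Its 2 tested markers, HBA1 and HBZ, had epithelial means of 0.0531 and 0.0259 FPKM. They passed the filter only through fiber cells, so that their being called higher adds nothing. Below the filter, HBAD was also higher in fiber cells without overlap, and HBBA, HBE1 and SLC4A1 overlapped. The endothelial sum (4 markers found, of which 2 were tested and called lower) was 0.536 to 1.05 FPKM in fiber cells and 2.71 to 3.90 FPKM in epithelial cells. Of these 2, KDR passed the filter only through epithelial cells (fiber mean 0.219 FPKM). The immune sum (5 markers found) was 2.33 to 3.15 FPKM in fiber cells and 0.499 to 0.568 FPKM in epithelial cells, and its 1 tested marker, CD3E, was called higher, from 0.0265 to 0.119 FPKM in epithelial cells up to 2.08 to 2.90 FPKM in fiber cells (log2 fold change 3.96, limma adjusted p = 8.36e-06). CD3E, too, passed the filter only through fiber cells. PTPRC and CSF1R, below the filter, went the other way without overlap. The means of PTPRC and CSF1R were 0.0814 and 0.292 FPKM in epithelial cells and 0.0159 and 0.155 FPKM in fiber cells. LCP1 and SPI1 overlapped. The connective tissue sum (7 markers found) was 5.68 to 6.92 FPKM in fiber cells against 2.59 to 4.13 FPKM in the epithelium. Of its 2 tested markers, DCN was called higher, from 1.24 to 3.16 FPKM in epithelial cells up to 5.19 to 6.38 FPKM in fiber cells (log2 fold change 1.34, limma adjusted p = 0.00372). The other, COL3A1, was not called (log2 fold change −0.44). COL1A2 and LUM, below the filter, were lower in fiber cells without overlap. Their means were 0.261 and 0.0719 FPKM in epithelial cells and 0.0306 and 0.00697 FPKM in fiber cells. The pigment cell sum (6 markers found) was 3.30, 2.92 and 0.390 FPKM in epithelial replicates 1, 2 and 3 and 0.174 to 0.560 FPKM in fiber cells. The skeletal muscle sum (5 markers found) was 0.996 to 1.22 FPKM in epithelial cells and 0.209 to 0.636 FPKM in fiber cells. Its 1 tested marker, ACTA1, was called lower, but it passed the filter only through epithelial cells (fiber mean 0.373 FPKM). The neural retina sums of the groups overlapped. The part of these markers in the results was not tested.

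Expression of the FGF receptors, FRS2 and most of the feedback genes was lower in fiber cells. FGFR1, FGFR2, FGFR3, FRS2, SPRY1, SPRY2, DUSP6 and ETV1 were called lower, and ETV5 was not called. These 8 of 9 genes (88.9%) stood beside 57.7% of all tested genes called lower and 13.1% called higher. In the same 8 genes all 3 fiber libraries lay below all 3 epithelial libraries, as they did in 63.6% of all tested genes, while the opposite, which none of the 9 showed, was seen in 16.1%. A two-sided exact permutation test of each of the 8 gave p = 0.1, the smallest value that 3 libraries against 3 allow, and that of ETV5 gave p = 0.9. With every library centred on its median, the same 8 genes were called lower, where 29.3% of the tested genes were, and ETV5 was called higher, where 30.2% were. Their median over the 9 was −1.53 (log2), or −0.91 relative to the median gene. The share of tested genes with a lower fold change was 7.29% for FGFR2, 10.1% for FGFR3, 11.8% for DUSP6 and 12.7% for SPRY1. It was 16.6% for SPRY2, 29.3% for FGFR1, 30.8% for ETV1, 31.6% for FRS2 and 74.5% for ETV5. In such bulk samples, fewer cells of a type and less RNA per cell cannot be told apart.

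**Figure D1:**
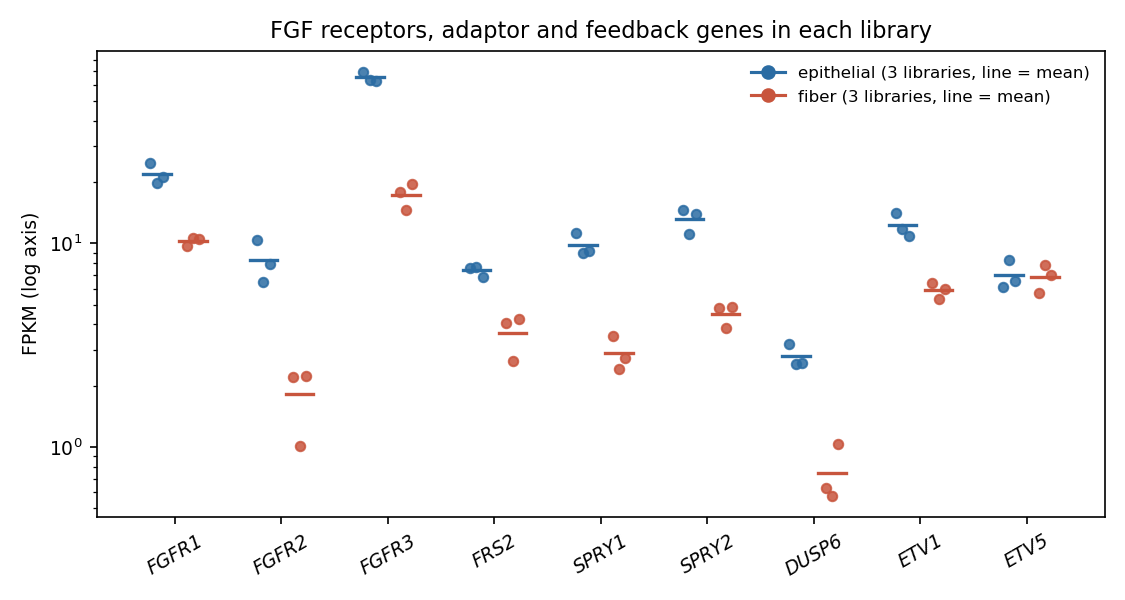
FPKM (log axis) of the 9 genes in each of the 3 epithelial and 3 fiber libraries, with a line at the mean of each cell type. The fiber libraries lie below the epithelial libraries for 8 genes, and the values of ETV5 overlap.

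FGFR3 was the most abundant receptor in both cell types. Its transcript was at 69.5, 63.4 and 63.1 FPKM in epithelial replicates 1, 2 and 3 and at 18.0, 14.7 and 19.5 FPKM in fiber replicates 1, 2 and 3. The epithelial libraries were all high and close to each other, and the groups were far apart. Mean expression fell from 65.3 ± 3.64 to 17.4 ± 2.50 FPKM (SD, n = 3 each), which is 3.76-fold lower (log2 fold change −1.91, SE 0.12, limma adjusted p = 5.58e-06). After centring, the log2 fold change was −1.30 (limma adjusted p = 2.2e-05). Of all tested genes, 10.1% had a lower fold change.

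FGFR1, the receptor next in abundance, was at 25.0, 19.8 and 21.2 FPKM in epithelial replicates 1, 2 and 3 and at 9.69, 10.7 and 10.6 FPKM in the fiber replicates. The groups did not overlap, and the fiber libraries differed little among themselves. Mean expression fell from 22.0 ± 2.66 to 10.3 ± 0.539 FPKM (SD, n = 3 each; log2 fold change −1.08, SE 0.11, limma adjusted p = 4.38e-05). Its change after centring was smaller, at −0.47 (limma adjusted p = 0.00423), where the median gene itself had −0.62 before centring.

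FGFR2, whose gene encodes receptor isoforms that differ between epithelia and mesenchyme, had the largest fall of the 9 genes as deposited and after centring. With a pseudocount of 1 FPKM or with quantile normalization, the fall of FGFR3 was larger. FGFR2 was at 10.4, 6.45 and 7.94 FPKM in epithelial replicates 1, 2 and 3 and at 2.21, 1.01 and 2.23 FPKM in fiber replicates 1, 2 and 3. Fiber replicate 2 was the lowest and epithelial replicate 1 the highest library, and the groups did not overlap. Mean expression fell from 8.26 ± 1.99 to 1.82 ± 0.700 FPKM (SD, n = 3 each), which is 4.55-fold lower (log2 fold change −2.18, SE 0.30, limma adjusted p = 0.000287). With centring it was −1.57 (limma adjusted p = 0.00185). Only 7.29% of the tested genes had a lower fold change. The deposited values are per gene and do not separate the isoforms.

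The FPKM of these 3 receptors summed to 95.6 ± 8.14 (SD, n = 3) in the epithelial libraries against 29.5 ± 3.01 (SD, n = 3) in the fiber libraries. Shares within a library do not depend on how libraries are scaled. FGFR3 held 66.3%, 70.7% and 68.4% of the sum in epithelial replicates 1, 2 and 3 and 60.2%, 55.6% and 60.4% in fiber replicates 1, 2 and 3. FGFR1 held 23.8%, 22.1% and 23.0% in epithelial cells and 32.4%, 40.6% and 32.7% in fiber cells. The receptor pool was thus led by FGFR3 in each library, with a larger share of FGFR1 in each fiber library than in any epithelial library. FGFR2 held 8.57% ± 1.36 in epithelial cells and 6.04% ± 1.93 in fiber cells (SD, n = 3 each), and its libraries overlapped.

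**Figure D2:**
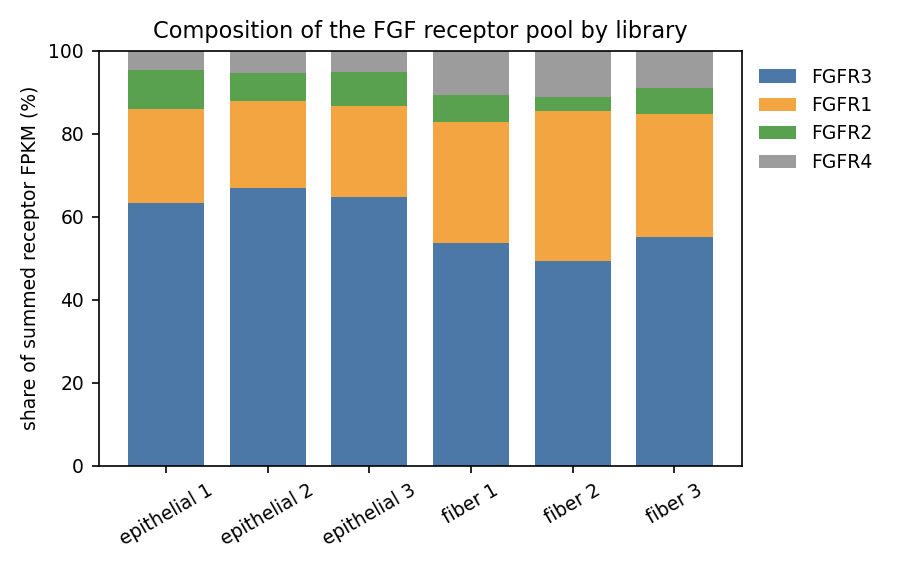
Share (%) of the summed FPKM of FGFR1 to FGFR4 held by each receptor, a stacked bar per library. FGFR3 is the largest part in every library (49.4% to 66.9%), and FGFR1 and FGFR4 take larger parts in the 3 fiber libraries.

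Ratios between pairs of genes in the same library were compared by a two-sided exact permutation test, which cannot give a p below 0.1 with 3 libraries against 3. The FGFR1 to FGFR2 ratio was 2.40, 3.07 and 2.68 in epithelial replicates 1, 2 and 3 and 4.38, 10.6 and 4.75 in fiber replicates 1, 2 and 3. The groups did not overlap, with a log2 difference of 1.16 (exact p = 0.1, adjusted over the 5 ratios 0.167). The FGFR1 to FGFR3 ratio was 0.313 to 0.359 in the epithelial libraries and 0.539 to 0.729 in the fiber libraries, again without overlap (log2 difference 0.83, exact p = 0.1, adjusted 0.167). The FGFR3 to FGFR2 ratio was 6.69 to 9.82 in the epithelial libraries and 8.12 to 14.5 in the fiber libraries, and the groups overlapped (log2 difference 0.33, exact p = 0.4, adjusted 0.4). Fiber replicate 2, with the lowest FGFR2 value, gave the highest of both ratios to FGFR2. Without it, the log2 difference of FGFR1 to FGFR2 was 0.75 and that of FGFR3 to FGFR2 was 0.07.

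The remaining receptor genes were lower with the FPKM as deposited, FGFR4 not after centring. FGFR4 was at 5.0 to 5.09 FPKM in epithelial cells and 3.16 to 3.55 FPKM in fiber cells (log2 fold change −0.59, limma adjusted p = 0.000805), but after centring its difference was 0.02 (limma adjusted p = 0.85). Its share of the 4 receptors was 5.04% ± 0.431 in epithelial and 10.2% ± 1.16 in fiber cells (SD, n = 3 each). FGFRL1, a receptor relative without the tyrosine kinase domain, was at 2.40, 5.23 and 4.30 FPKM in epithelial replicates 1, 2 and 3 and at 0.502, 1.02 and 1.58 FPKM in the fiber replicates. It fell (log2 fold change −1.90, limma adjusted p = 0.00274), but with quantile normalization it was not called (−1.09, limma adjusted p = 0.0568). The co-receptor genes KL and KLB were below the filter, KLB at 0.469 to 0.697 FPKM in the epithelium and 0.0588 to 0.201 FPKM in the fibers.

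FRS2, the docking protein that links the receptor to GRB2 and SHP2, was at 7.59, 7.66 and 6.86 FPKM in epithelial replicates 1, 2 and 3 and at 4.06, 2.66 and 4.25 FPKM in the fiber replicates. No fiber library reached an epithelial one. The log2 fold change was −1.02 (SE 0.18, limma adjusted p = 0.000932). After centring it was −0.41, just past the threshold (limma adjusted p = 0.0478), and with the replicate number as a block added to the centring the adjusted p was 0.0686.

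The Sprouty genes encode inhibitors that act on the way from the receptor to RAS and RAF. SPRY1 was at 11.3, 8.99 and 9.19 FPKM in epithelial replicates 1, 2 and 3 and at 3.52, 2.41 and 2.74 FPKM in fiber replicates 1, 2 and 3. The groups did not overlap, and the mean was 3.40-fold lower in fiber cells (log2 fold change −1.74, SE 0.16, limma adjusted p = 3.2e-05). SPRY2 was at 14.6, 11.2 and 13.9 FPKM and at 4.84, 3.83 and 4.86 FPKM in the same order. It was 2.93-fold lower, also without overlap (log2 fold change −1.53, SE 0.14, limma adjusted p = 3.27e-05). After centring the log2 fold changes were −1.13 for SPRY1 and −0.92 for SPRY2. The SPRY1 to SPRY2 ratio was 0.662 to 0.805 in the epithelial libraries and 0.564 to 0.728 in the fiber libraries, with overlapping groups (log2 difference −0.22, exact p = 0.2, adjusted over the 5 ratios 0.25). SPRY1 overlaps a long noncoding RNA gene in the RefSeq annotation of GRCg7b, an assembly later than the galGal6 of the files, and whether strand was used in the authors' counting is not given in the sources used here.

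DUSP6 encodes the phosphatase that removes the activating phosphates from ERK in the cytoplasm. Its transcript was at 3.22, 2.56 and 2.58 FPKM in epithelial replicates 1, 2 and 3 and at 0.627, 0.579 and 1.03 FPKM in the fiber replicates. It was the least abundant of the 9 genes in both cell types, and the groups did not overlap. The mean was 3.74-fold lower in fiber cells (log2 fold change −1.80, SE 0.22, limma adjusted p = 0.000146), and the change after centring was −1.19 (limma adjusted p = 0.00136). Its size depended on the processing, with a log2 fold change of −1.12 at a pseudocount of 1 FPKM and of −0.91 with quantile normalization.

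The ETS factor genes did not move together. ETV1 was at 14.2, 11.8 and 10.9 FPKM in epithelial replicates 1, 2 and 3 and at 6.43, 5.34 and 5.99 FPKM in fiber replicates 1, 2 and 3. It fell from 12.3 ± 1.67 to 5.92 ± 0.547 FPKM (SD, n = 3 each; log2 fold change −1.04, SE 0.12, limma adjusted p = 0.000121). After centring its log2 fold change was −0.43 (limma adjusted p = 0.00831). ETV5 was at 6.14, 8.31 and 6.55 FPKM in epithelial cells and at 5.71, 7.87 and 6.99 FPKM in fiber cells, so that its libraries overlapped. Its log2 fold change was −0.03 (95% interval −0.39 to 0.33, limma adjusted p = 0.874), and after centring it was 0.58 (95% interval 0.16 to 0.99, limma adjusted p = 0.0215). Scaled to the 75th percentile it was 0.27 and with quantile normalization 0.35, and neither passed the test.

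Within a library, ETV1 stood above ETV5 in epithelial cells, with ratios of 2.31, 1.42 and 1.67 in replicates 1, 2 and 3. In fiber cells the ratios were 1.13, 0.678 and 0.857, below every epithelial value (log2 difference −1.02, exact p = 0.1, adjusted over the 5 ratios 0.167). ETV4, the related factor of the same group, was at 4.98, 7.39 and 5.44 FPKM in epithelial cells and at 8.80, 11.1 and 11.6 FPKM in fiber cells. It rose (log2 fold change 0.82, SE 0.17, limma adjusted p = 0.00236), and after centring the value was 1.43 (limma adjusted p = 0.000356). The 3 factors therefore ran in different directions, with ETV1 lower, ETV4 higher and ETV5 dependent on the scaling.

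**Figure D3:**
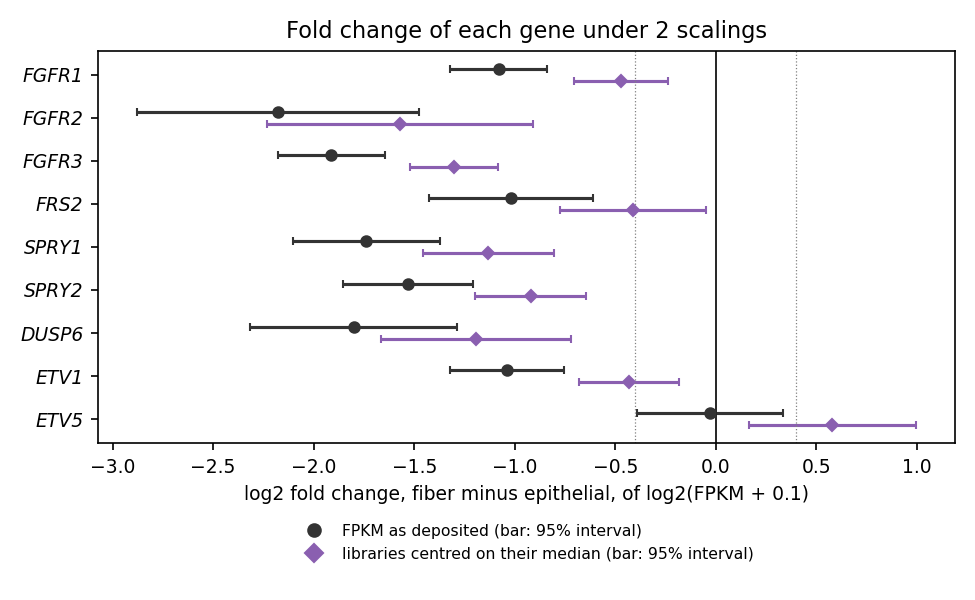
Log2 fold change (fiber minus epithelial) of each gene, as deposited and with libraries centred on their median, with 95% intervals; dotted lines mark −0.4 and 0.4. FGFR2, FGFR3, DUSP6 and SPRY1 lie furthest to the left under both scalings (−2.18 to −1.74 as deposited), and ETV5 changes from −0.03 to 0.58.

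By level, the order in epithelial cells was FGFR3, FGFR1, SPRY2, ETV1, SPRY1, FGFR2, FRS2, ETV5 and DUSP6. The libraries of FGFR3, of FGFR1 and of DUSP6 were separate from those of their neighbours in that order, whereas each neighbouring pair from SPRY2 to ETV5 overlapped. In fiber cells the order was FGFR3, FGFR1, ETV5, ETV1, SPRY2, FRS2, SPRY1, FGFR2 and DUSP6. ETV5 moved from the eighth to the third place while its own level stayed between 5.71 and 8.31 FPKM in all 6 libraries. The neighbours ETV5 and ETV1, SPRY2 and FRS2, FRS2 and SPRY1, and FGFR2 and DUSP6 overlapped there.

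Libraries of the same cell type also differed. Epithelial replicate 1, with the lowest summed fiber markers of its group, was the highest epithelial library for 7 of the 9 genes (FGFR1, FGFR2, FGFR3, SPRY1, SPRY2, DUSP6 and ETV1), as it was for 49.9% of all tested genes. Fiber replicate 2, with the lowest summed epithelial markers (76.5 FPKM against 104 and 111), was the lowest fiber library for 7 of the 9 (FGFR2, FGFR3, FRS2, SPRY1, SPRY2, DUSP6 and ETV1), against 49.8% of all tested genes. ETV5 ran the other way and was lowest in epithelial replicate 1 and highest in fiber replicate 2. FGFR1, too, was highest in fiber replicate 2 (10.68 FPKM against 9.69 and 10.57). The 8 genes called lower were also called lower without either library.

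Other genes whose profiles over the 6 libraries were most like those of the receptors were found by the root mean square difference of log2(FPKM + 0.1), each profile centred on its own mean. For FGFR1 these were C2CD3 (0.042 log2 units) and TCF3 (0.045), for FGFR2 CRABP2 (0.105) and ADAMTS6 (0.119), and for FGFR3 OGT (0.047) and PARD6G (0.047). CRABP2, which encodes a retinoic acid binding protein, was at 16.6, 10.4 and 12.9 FPKM in epithelial replicates 1, 2 and 3 and at 3.06, 1.80 and 3.81 FPKM in the fiber replicates. The measure rests on 6 libraries of 2 cell types and is a description only.

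The FGF genes were called in both directions. Of the 19 FGF genes listed, 8 were tested. In fiber cells 4 of these (50%) were called higher and 4 (50%) lower, where 13.1% and 57.7% of all tested genes were. The 4 called lower include FGF12 and FGF13, which encode intracellular relatives and not secreted ligands. After centring 4 were called higher and 3 lower, where 30.2% and 29.3% of all tested genes were. The other 11 were below the filter, 5 of them at the floor of 0.0001 FPKM in every library. The 8 tested FGF genes, FGF12 and FGF13 included, had a median of 0.28 (log2), against −0.62 among all genes tested. FGF1, the acidic FGF that binds every FGF receptor, was at 0.274, 0.884 and 0.545 FPKM in epithelial replicates 1, 2 and 3 and at 4.08, 5.0 and 4.54 FPKM in the fiber replicates. It rose (log2 fold change 2.90, SE 0.32, limma adjusted p = 7.99e-05), a value exceeded by few genes, as 98.9% of all tested genes had a lower one. With a pseudocount of 1 FPKM the log2 fold change was 1.84. FGF22 rose from 1.24 ± 0.498 to 3.56 ± 0.503 FPKM (SD, n = 3 each; log2 fold change 1.51, limma adjusted p = 0.000813). FGF2, the basic FGF, and FGF16 were the others called higher, with log2 fold changes of 1.11 and 1.14. The call of FGF16 (limma adjusted p = 0.0205) was lost without fiber replicate 2 (limma adjusted p = 0.0531), without fiber replicate 3 (0.0695), with no filter (0.0948) and with limma treat (0.0736), and its log2 fold change was 0.70 without epithelial replicate 1.

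FGF19, an FGF that in other tissues acts as a hormone with KLB as co-receptor, was at 5.59, 5.09 and 5.80 FPKM in epithelial cells and at 0.493, 0.425 and 0.616 FPKM in fiber cells. It was 10.8-fold lower in fiber cells (log2 fold change −3.20, SE 0.16, limma adjusted p = 2.63e-06). With a pseudocount of 1 FPKM the log2 fold change was −2.10. FGF7, a ligand of the epithelial FGFR2 isoform, fell from 7.05 ± 0.618 to 2.39 ± 0.0528 FPKM (SD, n = 3 each; log2 fold change −1.52, limma adjusted p = 1.03e-05). FGF13 and FGF12 encode intracellular relatives that are not secreted. FGF13 fell with a log2 fold change of −2.39 (−1.03 with a pseudocount of 1 FPKM), while FGF12 had −0.54 (limma adjusted p = 0.00704) as deposited but 0.06 after centring (limma adjusted p = 0.705). The mean of FGF13 was 1.45 FPKM in epithelial cells and 0.197 FPKM in fiber cells, so that it passed the filter only through epithelial cells.

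**Figure D4:**
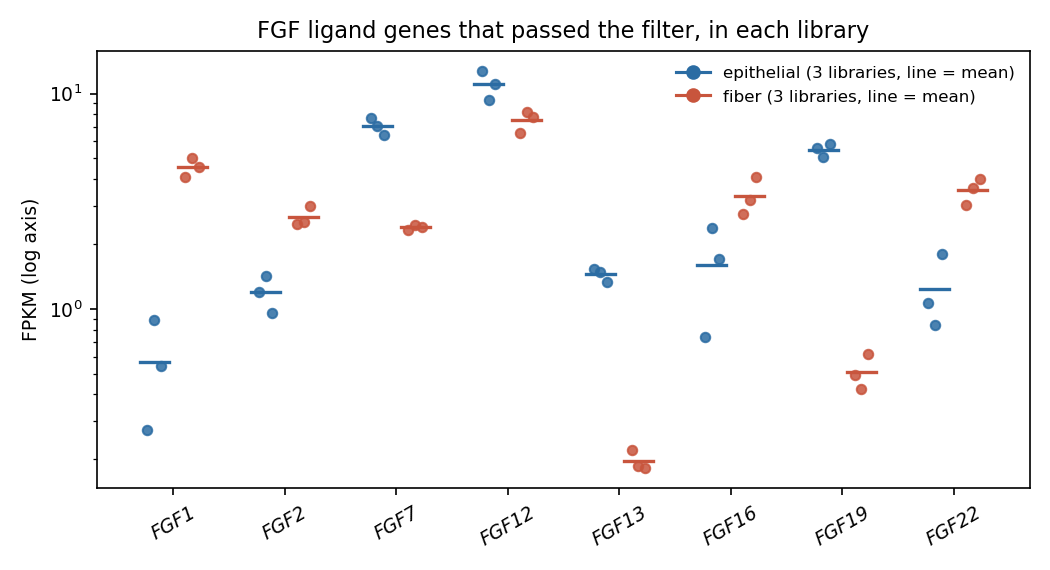
FPKM (log axis) of the 8 FGF genes that passed the filter in each of the 3 epithelial and 3 fiber libraries, with a line at the mean. FGF1, FGF2, FGF16 and FGF22 are higher in every fiber library, and FGF7, FGF12, FGF13 and FGF19 are lower.

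Along the rest of the pathway, calls were counted step by step. Of the 17 tested heparan sulfate core protein and enzyme genes, 13 (76.5%) were called lower and none was called higher, where 57.7% and 13.1% of all tested genes were, and the list median was −0.91 (log2) against −0.62. After centring, 7 were called lower and 3 higher, where 29.3% and 30.2% of all tested genes were. GPC4, a glypican, fell from 13.5 ± 1.16 to 0.921 ± 0.421 FPKM (SD, n = 3 each; log2 fold change −3.80, limma adjusted p = 8.45e-06), and SDC1, a syndecan, fell (log2 fold change −2.91, limma adjusted p = 0.000102). The mean of SDC1 was 2.3 FPKM in epithelial cells and 0.239 FPKM, below 0.5 FPKM, in fiber cells. SDC1 thus passed the filter only through epithelial cells and is counted among the 13 called lower. With a pseudocount of 1 FPKM the log2 fold change of SDC1 was −1.41. Of the 13 tested adaptors and exchange factors, FRS2 included, 9 (69.2%, against 57.7% of all tested genes) were called lower and none higher, with a list median of −0.52 (log2). After centring 4 of the 13 were called lower, a share near the 29.3% of all tested genes, and 2 higher. PLCG1, the phospholipase that docks on the activated receptor, fell from 2.15 ± 0.454 to 0.238 ± 0.122 FPKM (SD, n = 3 each; log2 fold change −2.79, limma adjusted p = 0.000113). Its fiber mean lay below 0.5 FPKM, so that it passed the filter only through epithelial cells, and it is counted among the 9 called lower. With a pseudocount of 1 FPKM the log2 fold change of PLCG1 was −1.34. GAB2, a docking protein that binds GRB2, fell (log2 fold change −2.30, limma adjusted p = 7.27e-06).

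In the RAS to ERK relay, most genes were not called. Of its 12 tested genes, 4 (33.3%) were called lower and 1 (8.33%) higher, against 57.7% and 13.1% of all tested genes. The list median was −0.29 (log2). After centring 1 was called lower and 3 higher, where 29.3% and 30.2% of all tested genes were. RPS6KA1 and RPS6KA3 encode ribosomal S6 kinases, which ERK activates, and they changed in opposite directions. RPS6KA1 rose from 7.23 ± 0.603 to 16 ± 0.903 FPKM (log2 fold change 1.13, limma adjusted p = 2.22e-05), while RPS6KA3 fell from 8.60 ± 0.989 to 2.14 ± 0.542 FPKM (log2 fold change −1.98, limma adjusted p = 2.92e-05; SD, n = 3 each). BRAF fell (log2 fold change −1.08, limma adjusted p = 0.000764), a call that was not kept after centring (limma adjusted p = 0.0565).

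Of the 13 tested feedback inhibitors, SPRY1, SPRY2 and DUSP6 included, 9 (69.2%) were called lower and 3 (23.1%) higher, against 57.7% and 13.1% of all tested genes, and these 3 members are among the 9. The list median was −1.0 (log2). After centring 6 were called lower and 3 higher, where 29.3% and 30.2% of all tested genes were. SPRED2, which holds back RAF activation, fell from 7.29 ± 0.480 to 2.33 ± 0.200 FPKM (SD, n = 3 each; log2 fold change −1.60, limma adjusted p = 9.56e-06). DUSP7, a phosphatase of ERK close to DUSP6, fell with −1.84 (limma adjusted p = 0.000116), and IL17RD, which encodes the FGF antagonist SEF and shared its values with another entry, fell with −1.40 (limma adjusted p = 6.89e-05). With a pseudocount of 1 FPKM, DUSP7 had −0.909 and IL17RD had −0.835. The mean of DUSP7 was 1.58 FPKM in epithelial cells and 0.372 FPKM in fiber cells. DUSP7 passed the filter only through epithelial cells and is counted among the 9 called lower. DUSP1, a nuclear phosphatase of several MAP kinases, went the other way, from 0.786, 1.22 and 0.689 FPKM in epithelial replicates 1, 2 and 3 to 4.67, 3.65 and 5.34 FPKM in the fiber replicates (log2 fold change 2.24, SE 0.23, limma adjusted p = 5.27e-05). SPRED1 also rose (log2 fold change 0.48, limma adjusted p = 0.00488), a call lost with a pseudocount of 1 FPKM (0.39) and when tested against a change of 0.4 (limma treat, adjusted p = 0.366). DUSP4 was not called (log2 fold change −0.11, limma adjusted p = 0.734). The feedback inhibitors below the filter were SPRY3, SPRY4 and DUSP5. SPRY4 stayed at 0.0163 to 0.166 FPKM, and SPRY3 was at the floor in every library. DUSP5 was higher in fiber cells without overlap, at 0.0001 to 0.0226 FPKM in epithelial and 0.240 to 1.25 FPKM in fiber libraries.

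Of the 11 tested transcription targets, ETV1 and ETV5 included, 6 (54.5%, against 57.7% of all tested genes) were called lower. ETV4 alone (9.09%, against 13.1%) was called higher. After centring, 4 were called lower and 4 higher, where 29.3% and 30.2% of all tested genes were. FOSL2, a partner of JUN in the AP-1 factor, fell from 6.91 ± 1.51 to 0.346 ± 0.127 FPKM (SD, n = 3 each; log2 fold change −3.99, limma adjusted p = 6.35e-06). FOSL2 passed the filter only through epithelial cells and is counted among the 6 called lower. With a pseudocount of 1 FPKM its log2 fold change was −2.54. FLRT3, a membrane protein that binds FGF receptors, fell with −2.49 (limma adjusted p = 9.84e-06). Over all lists, members included, 50 of 79 tested genes (63.3%) were called lower and 9 (11.4%) higher, close to the shares of all tested genes, and the 70 tested genes that are not members had a median of −0.53 (log2) against −0.62 for all.

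**Figure D5:**
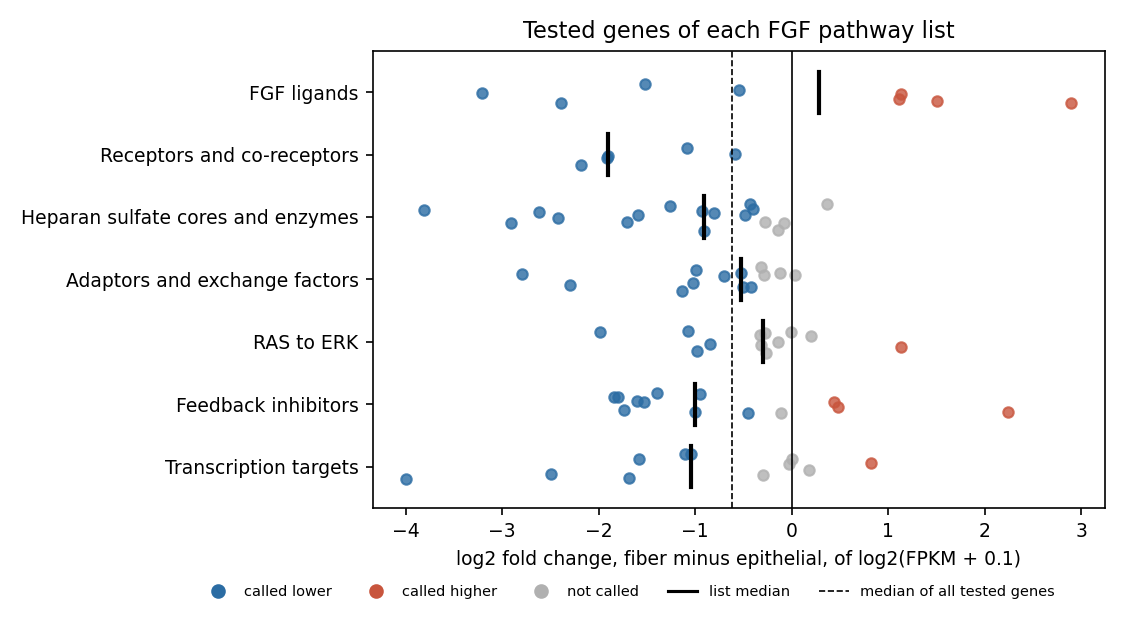
Log2 fold change (fiber minus epithelial) of the tested genes of each FGF pathway list, coloured by call, with the list median (bar) and the median of all tested genes (dashed, −0.62). Receptors lie furthest to the left as a list (median −1.90), and the RAS to ERK genes centre on −0.29. The ligand list, which also holds the intracellular FGF12 and FGF13, falls on both sides of 0.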

How the data were processed

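Total RNA of pooled E13 lens epithelial and fiber cells was made into stranded libraries. Per the labels and the study's methods, the authors trimmed reads with Cutadapt, mapped them to galGal6 with Bowtie2 and HISAT2, assembled them with StringTie and estimated expression with edgeR. The deposited FPKM are per gene and library, with 0.0001 in place of 0. Further columns with the authors' averages, fold changes, p-values and q-values were not used. The low FPKM values were not whole multiples of a step, so that no counts were recovered. Libraries were grouped by their titles. The listed pathway genes GPC2, NDST2, HRAS, ARAF, SPRED3, RASA1, ELK1, IER2 and IER3 and the epithelial marker FOXE3 were not analysed here.

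Values were fitted as log2(FPKM + 0.1) with limma 3.58.1 in R 4.3.3 (mean-variance trend), for entries that averaged 0.5 FPKM or more, with Benjamini-Hochberg adjustment over all of them. The pipeline was tested on simulated data of 10818 genes. Of 200 genes given a log2 change of 1, 146 (73%) were called in the right direction. Of the unchanged genes, 9 were called. Alternatives were a pseudocount of 1 or 0.01, no filter or one of 1 FPKM, median centring, 75th percentile and quantile scaling, limma without trend, with robust moderation or as treat, a replicate block, and leaving out each library. Within-library ratios and shares used unmodified FPKM. Shares with FGFR4 in the sum were chosen after seeing the data.

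The 9 genes, the pathway and marker lists and the tests were chosen with earlier results of these data known. Beside the 9, the text names the 2 most changed called genes per direction and list, a few fixed paralogs (FGFR4, FGFRL1, SPRY4, SPRED1, SPRED2, DUSP4, ETV4, IL17RD), and the 2 nearest profiles of each receptor. FGF2, FGF7, FGF12, FGF16, KL, KLB, SPRY3, DUSP5 and the markers named singly were picked after their values were seen. Libraries of a cell type are biological replicates of pooled lenses, and the p-values measure the spread between these pools.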

Additional observations from a re-analysis of the deposited data

How the results depend on the processing

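Of the 9 genes, 7 kept their direction and their call under each of the 18 alternatives, and the count called lower was 8 with any library left out. The exceptions were FRS2, with −0.41 (limma adjusted p = 0.0686) under the replicate block with median centring, and ETV5. ETV5 turned to 0.58 with median centring, with or without the block, 0.27 with 75th percentile scaling and 0.35 with quantile normalization, and it ranged from −0.13 to 0.10 with a library left out (0.10 without epithelial replicate 2 or without fiber replicate 1). Median centring, with or without the block, therefore gave 1 member called higher in place of 0. Over all pathway lists it gave 29 genes called lower and 19 higher, and quantile normalization gave 14 higher, against 50 and 9. By list, median centring gave 7 lower and 3 higher for heparan sulfate genes, 4 lower (3 with the block) and 2 higher for adaptors, 1 lower and 3 higher for RAS to ERK, and 4 higher for transcription targets. The 75th percentile gave 1 heparan sulfate gene and 2 transcription targets higher. Quantile normalization gave 3 receptor genes lower, 2 heparan sulfate genes higher, 5 adaptors lower, 2 RAS to ERK genes lower and 2 higher, and 2 transcription targets higher. A pseudocount of 1 FPKM or treat left 1 feedback inhibitor called higher. A pseudocount of 1 FPKM turned the FGFR3 to FGFR2 log2 ratio to −0.13. Of the 26 other pathway genes named with a test, 19 kept direction and call, and FGF12, FGF16, FGFR4, FGFRL1, BRAF, SPRED1 and DUSP4 did not. The marker genes named singly, such as CD3E and DCN, are not part of this count. FGF12 (0.063) and FGFR4 (0.022) changed sign with centring, with or without the block. DUSP4 changed sign to 0.50 with centring, with or without the block, to 0.15 with the 75th percentile and to 1.10 with quantile normalization, and it ranged from −0.32 to 0.16 with a library left out. The cause of these changes was not tested.

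The replicate numbers were not taken as pairs. The paper describes each biological replicate as pooled lenses dissected into epithelial and fiber cells. It does not say outright that libraries with the same number share lenses. Deviations of libraries with the same number correlated at r = 0.07 to 0.09 across genes, those of the others at −0.05 to −0.02. Each library correlated best with its own number. The exact tests treated the 6 libraries as independent, and with pairs their smallest p would exceed 0.1. The replicate block alone gave 6268 genes lower and 1436 higher, against 6240 and 1415, and changed no call of the 9 genes. Depth is unknown, which leaves the precision of low genes such as DUSP6 to the replicates.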
